A study of Homo sapiens with 10 samples.

Results

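The transcripts described here encode 8 enzymes of glycolysis (HK1, HK2, ALDOA, TPI1, GAPDH, PGK1, PGAM1 and ENO1) and both somatic lactate dehydrogenase subunits (LDHA and LDHB). They were chosen by gene name, and all 10 were found among 19301 named features, each on a row of its own. RNA came from HEK293FT, a readily transfected human embryonic kidney line, here carrying Gaussia and Cypridina luciferase reporters brought in by lentivirus. Cells of all groups were transfected with 59 ng of a plasmid for dCas9-VP64 (inactive Cas9 joined to the VP64 activation domain) and lysed for RNA after 3 days. The group CasVP had no guide. The other 4 groups also received 11.6 ng of a plasmid from which a U6 promoter drives a guide to the Gaussia reporter, labelled sgRNA, INT, P4P6 or TOP1 (this last is a guide label, not the gene TOP1). Each of the 5 groups had 2 libraries, and the labels do not say whether these came from separate cultures, so p-values measure only the spread between these samples. Libraries are named by group and by the index 0 or 1 of their column, and which labelled replicate an index stands for is not known.

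Glycolysis splits glucose into pyruvate in the cytosol, and gains ATP at the steps of phosphoglycerate kinase and pyruvate kinase. Lactate dehydrogenase then converts pyruvate to lactate and restores the NAD+ that GAPDH uses. The enzyme is a tetramer of the LDHA subunit, which prevails in skeletal muscle and in many tumours, and the LDHB subunit, which prevails in heart. Most steps have several paralogs with tissue-specific use, and LDHA, PGK1, ALDOA, ENO1 and HK2 are textbook targets of the hypoxia-inducible factors.

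Levels are in FPKM (fragments divided by transcript length and by a library scale that is not given), and so can be compared between genes. Relative depth, estimated from the size of the smallest values, ran from 0.694 in P4P6 replicate 0 to 1.02 in TOP1 replicate 0, with CasVP replicate 0 set to 1. Of 7 genes typical of HEK293 cells, 6 had a mean of at least 10 FPKM, and PAX2 stood at 0.926 FPKM. All 12 marker genes of leukocytes, hepatocytes, muscle and erythroid cells were under 1 FPKM on average. Among 3 fibroblast markers, COL1A1 reached 1.43 FPKM and COL1A2 was listed at 0 in every library. Summed FPKM of the named features was lowest in the P4P6 libraries, at 540085 and 522550, against 548895 to 598372 in the other libraries.

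RefSeq windows of 250 bases before each annotated transcript start were available for all 10 genes, 21 windows in all (build GRCh38.p14, whereas the submitters' processing notes name hg19). The windows of LDHA, LDHB and PGK1 are shown because LDHA and LDHB are the isoenzyme pair discussed below, and PGK1 was the measured enzyme whose levels ran closest to those of LDHA. Capitals mark the letters ACGTG on either strand (ACGTG or CACGT, with overlapping matches joined). These letters are a form of the core that hypoxia-inducible factors recognise, and part of the E-box CACGTG. Other forms of the core were not searched. LDHA is read on the plus strand at chr11:18394313-18394562, LDHB on the minus strand at chr12:21657843-21658092 and PGK1 on the plus strand at chrX:78103998-78104247.
LDHA: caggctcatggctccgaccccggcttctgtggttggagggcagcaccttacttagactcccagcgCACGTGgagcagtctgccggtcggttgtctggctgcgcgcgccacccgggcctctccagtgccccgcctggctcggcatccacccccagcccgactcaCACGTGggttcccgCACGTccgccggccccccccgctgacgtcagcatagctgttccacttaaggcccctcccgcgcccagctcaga
LDHB: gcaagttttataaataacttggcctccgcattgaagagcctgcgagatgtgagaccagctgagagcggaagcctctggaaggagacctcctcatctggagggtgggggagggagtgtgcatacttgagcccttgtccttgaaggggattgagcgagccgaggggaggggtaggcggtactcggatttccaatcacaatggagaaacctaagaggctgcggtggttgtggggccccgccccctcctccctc
PGK1: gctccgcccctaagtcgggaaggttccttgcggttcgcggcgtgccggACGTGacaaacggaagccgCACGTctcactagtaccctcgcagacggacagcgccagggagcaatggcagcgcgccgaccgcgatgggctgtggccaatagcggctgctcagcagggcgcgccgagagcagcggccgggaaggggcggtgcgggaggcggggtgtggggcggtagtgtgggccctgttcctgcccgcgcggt
The LDHA window held 3 such places and the PGK1 window 2, while the LDHB window held none. A second annotated LDHA start, at chr11:18396101-18396350, had none. At least 1 match was found for 6 of the 10 genes (LDHA, PGK1, GAPDH, ALDOA, TPI1 and HK2), and in 9 of the 21 windows. HK2 had the most, with 4 over its 2 windows. ALDOA had 3 over 3 windows, and GAPDH and TPI1 had 1 each. The windows of ENO1, PGAM1, LDHB and HK1 had no match to ACGTG. Over all 35116 RefSeq windows of this length, 18.5% held a match. This is a share of windows and cannot be set against the count of genes, which differ in their number of windows. A match describes letters only.

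By transcript level, 1 paralog was dominant at most steps. Transcripts were spread over paralogs at the hexokinase, phosphofructokinase and lactate dehydrogenase steps. Protein amount and activity are not part of these data. Hexokinase, which traps glucose in the cell as glucose 6-phosphate, was made up of HK1 at a mean of 25.3 FPKM and HK2 at 13.7 FPKM. HK1, the widely expressed form, gave 64.7% of summed hexokinase FPKM on average (61.9 to 67.5% over the libraries) and HK2, the insulin- and hypoxia-responsive form, 35.1%. HK1 was above HK2 in every library, and their ranges did not overlap. HKDC1, at 0.0475 FPKM, and HK3, at 0.00778 FPKM, were close to absent.

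At the aldolase step, which splits fructose 1,6-bisphosphate, ALDOA made up 99.1% of summed FPKM, with a mean of 345 FPKM. The brain form ALDOC averaged 2.997 FPKM. GAPDH, which couples oxidation of glyceraldehyde 3-phosphate to reduction of NAD+, averaged 2219 FPKM, against 1.65 FPKM for its sperm paralog GAPDHS. PGK1, which makes ATP from 1,3-bisphosphoglycerate, averaged 189 FPKM, and the testis paralog PGK2 was listed at 0 in all 10 libraries. These 3 steps thus rested almost wholly on a single transcript in every library.

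PGAM1, which moves the phosphate of 3-phosphoglycerate, gave 97.0% of its step at 165 FPKM. The muscle form PGAM2 averaged 3.87 FPKM and PGAM4, a copy close in sequence to PGAM1, 1.14 FPKM. Because PGAM4 derives from PGAM1, reads may have been split between them by the authors' counting, and the PGAM4 value is uncertain. Enolase was 98.7% ENO1, at 1291 FPKM, with the neuronal form ENO2 at 10.6 FPKM and the muscle form ENO3 at 6.84 FPKM. TPI1, which interconverts the triose phosphates and has no paralog in the lists used, averaged 572 FPKM. GAPDH, ENO1, PGK1, TPI1 and LDHA also have processed pseudogenes in the human genome, and how fragments were assigned between copies is not given in the sources used here.

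Lactate dehydrogenase transcripts in these cells were mainly LDHB. LDHB averaged 1159 FPKM and LDHA 307 FPKM, or 78.5% and 20.8% of summed FPKM of the step. LDHB was between 3.26 and 4.35 times LDHA in the 10 libraries, so LDHB was the higher of the pair in each of them. The testis form LDHC averaged 11.1 FPKM (0.752%), LDHAL6A 0.288 FPKM and LDHAL6B 0.0593 FPKM. By contrast with steps led by 1 gene, phosphofructokinase, the committed step, was spread over PFKL at 45.9 FPKM, PFKM at 36.4 FPKM and PFKP at 18.7 FPKM. Pyruvate kinase was almost all PKM (302 FPKM, with 0.780 FPKM for the liver and red cell gene PKLR). The values do not separate the M1 and M2 splice forms of PKM.

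**Figure D1:**
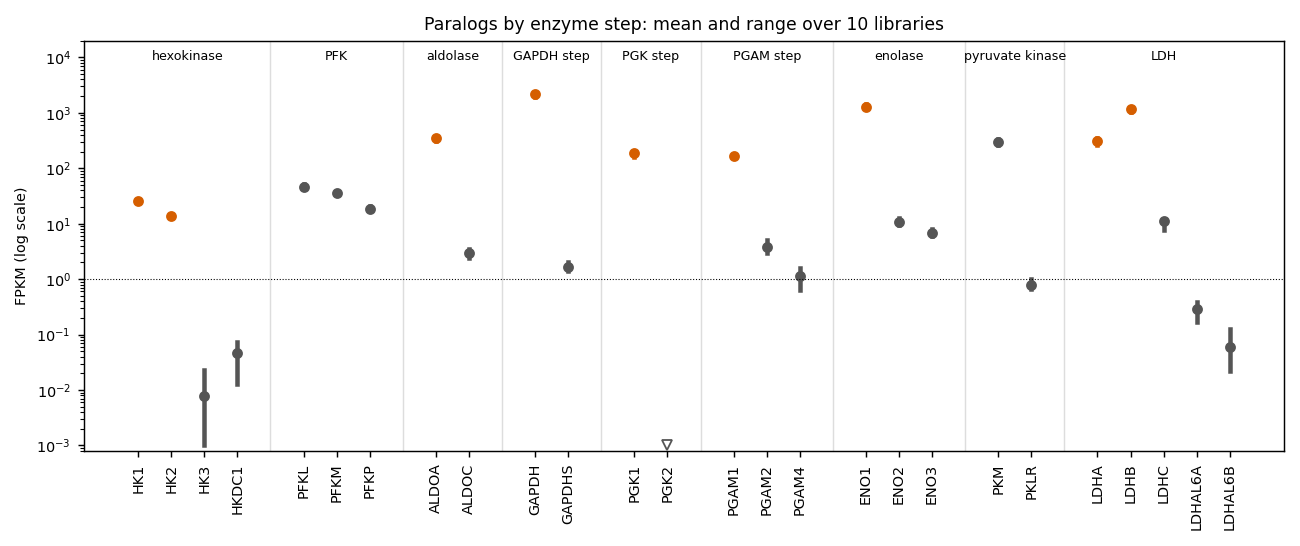
Mean FPKM of the paralogs reported here (points) with its range over the 10 libraries (bars) on a log axis, grouped by enzyme step, with the genes described here in orange and a dotted line at 1 FPKM. Values under the lower end of the axis are drawn at that end, and the open triangle marks PGK2, at 0 in all libraries. LDHA (307 FPKM) and LDHB (1159 FPKM) are both far above the other lactate dehydrogenases, whereas ALDOA, GAPDH, PGK1, PGAM1 and ENO1 each stand alone at their step.

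By level, the order was GAPDH, ENO1, LDHB, TPI1, ALDOA, LDHA, PGK1, PGAM1, HK1 and HK2. Neighbours whose ranges over the 10 libraries overlapped were ENO1 and LDHB, ALDOA and LDHA, and PGK1 and PGAM1. ENO1 was nevertheless above LDHB within every library, and ALDOA was above LDHA in all but TOP1 replicate 0. GAPDH ranked between 42 and 46 among named features in each library, ENO1 between 70 and 73, and LDHB between 72 and 76. The hexokinases, at the entry of the pathway, were the lowest, with HK2 ranked between 5775 and 6217.

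Over all 10 libraries the largest ratio of highest to lowest level was 1.35, for LDHA. The coefficient of variation was lowest for PGAM1 (3.48%) and HK2 (4.23%) and highest for LDHA (9.89%), and the median of 7165 tested features with a mean of at least 10 FPKM was 5.83%. LDHA was more variable than 92.2% of those features, PGK1 than 79.1%, GAPDH than 77.5%, LDHB than 70.1% and ENO1 than 60.9%. For HK1 this share was 54.4%, for ALDOA 46.7%, for TPI1 41.3%, for HK2 21.7% and for PGAM1 10.9%. The highest LDHA level, 352 FPKM in INT replicate 0, was 1.35 times the lowest, 261 FPKM in P4P6 replicate 0. PGK1 followed, with 7.85% and the same highest and lowest libraries (206 and 160 FPKM).

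**Figure D2:**
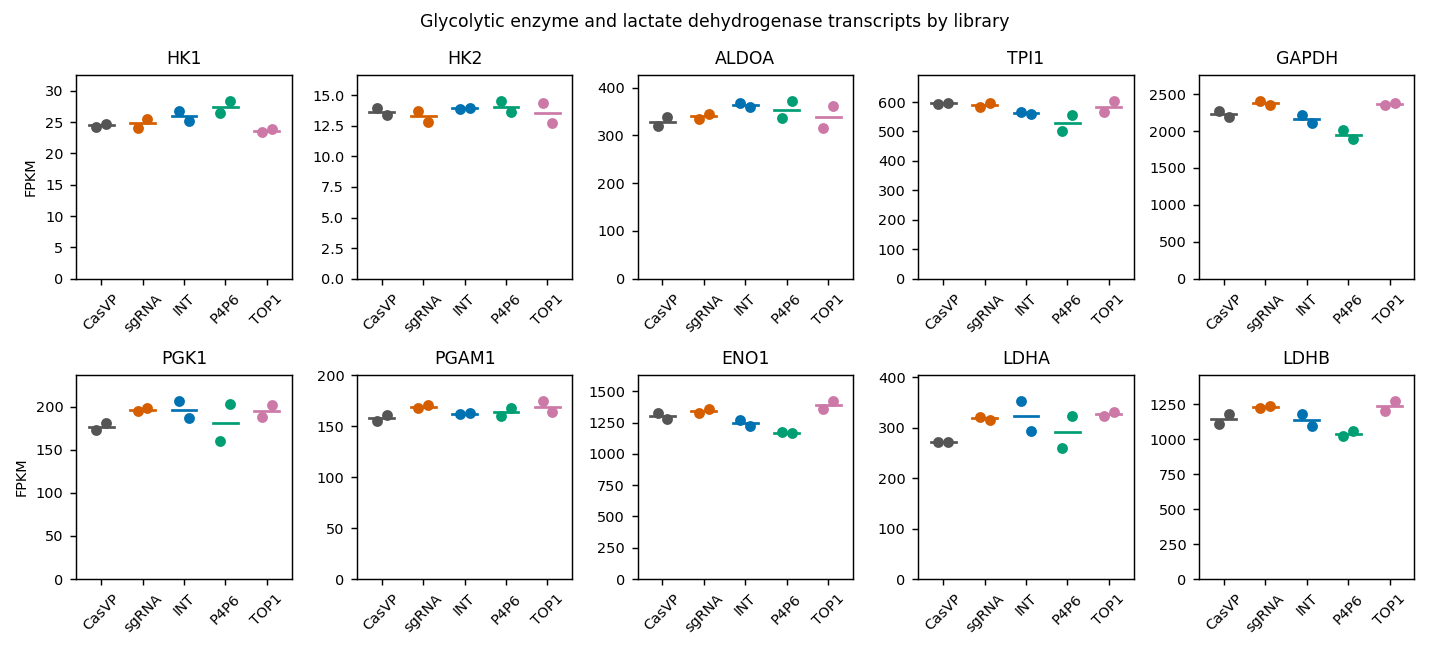
FPKM of each gene in the 10 libraries (points, 2 per group) with group means (lines). All axes start at 0. The groups lie close together for most genes. GAPDH, ENO1 and LDHB are lowest in P4P6, and LDHA is at 272 FPKM in both CasVP libraries and higher in all guide libraries except P4P6 replicate 0.

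Guides were compared with dCas9-VP64 alone to ask whether delivering a guide shifted these transcripts. None of the 10 genes passed in any of these comparisons (limma on log2(FPKM + 1), Benjamini-Hochberg adjusted p under 0.05 over 11574 tested features). The count was 0 of 10 for sgRNA and for INT, where 0.0173% of all tested features passed, and 0 of 10 for P4P6 and for TOP1, where 0.00864% passed. For all guides together it was again 0 of 10, beside 0.0173% of all features. With an unadjusted limit of 0.05, LDHA alone was counted for sgRNA, INT, TOP1 and all guides (6.02%, 8.86%, 9.22% and 7.43% of all features), and 5 genes for P4P6 (22.2% of all features). These comparisons share the CasVP libraries, so LDHA's count in several of them is not independent. Groups did not overlap for 5 of the 10 genes in sgRNA against CasVP (46% of all features), for 7 in INT (43.4%), for 5 in P4P6 (51.6%) and for 7 in TOP1 (48.2%).

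LDHA stood at 272 FPKM in both CasVP libraries. It was 322 and 316 FPKM in sgRNA, 352 and 295 FPKM in INT, 261 and 324 FPKM in P4P6, and 323 and 332 FPKM in TOP1. Of the 8 guide libraries, 7 were above both CasVP libraries and P4P6 replicate 0 was below both, so the sets overlapped. The log2 difference of all guides from CasVP was 0.21 (SE 0.08, 95% interval 0.04 to 0.38), and limma gave an unadjusted p of 0.0226 and a Benjamini-Hochberg adjusted p of 0.669. In single groups its log2 difference was 0.23 for sgRNA, 0.24 for INT, 0.10 for P4P6 and 0.27 for TOP1, each with an SE of 0.10.

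PGK1 showed the same layout with a smaller difference. It was at 173 and 181 FPKM in CasVP, 195 and 198 FPKM in sgRNA, 206 and 187 FPKM in INT, 160 and 203 FPKM in P4P6, and 188 and 202 FPKM in TOP1. Again 7 of the 8 guide libraries were above both CasVP libraries and P4P6 replicate 0 was below both. The log2 difference of all guides from CasVP was 0.12 (SE 0.08, 95% interval -0.05 to 0.29; limma, Benjamini-Hochberg adjusted p = 0.756). PGAM1 also had 7 of the 8 guide libraries above both CasVP libraries, which were at 155 and 161 FPKM. Its P4P6 replicate 0, at 160 FPKM, lay between them. For PGAM1 the difference was 0.07 (SE 0.04, 95% interval -0.01 to 0.16; limma, Benjamini-Hochberg adjusted p = 0.708).

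For LDHB, the intervals of the log2 difference from CasVP covered 0 for sgRNA (0.11, 95% interval -0.02 to 0.23), INT (-0.01, -0.13 to 0.12) and TOP1 (0.11, -0.02 to 0.24). For P4P6 it was -0.14 and the interval did not cover 0 (-0.27 to -0.01, limma, unadjusted p = 0.0358, Benjamini-Hochberg adjusted p = 0.193). Over all guides LDHB differed by 0.02 (95% interval -0.08 to 0.12). HK2 had the smallest difference of the 10, at 0.0026 (95% interval -0.12 to 0.12), and GAPDH and ENO1 were at -0.01 and -0.02. ALDOA was at 0.08, PGAM1 at 0.07, HK1 at 0.05 and TPI1 at -0.07, all with Benjamini-Hochberg adjusted p from limma from 0.708 to 0.826. The median over the 10 genes was 0.03, and over all tested features -0.0031. No gene separated the CasVP libraries from all 8 guide libraries (0 of 10, with 4.82% of all features).

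The share of LDHB in the LDHA and LDHB sum was used to compare isoenzyme choice, since a single factor per library cancels in it. It was 80.3 and 81.3% in CasVP, 79.2 and 79.6% in sgRNA, 77.0 and 78.9% in INT, 79.7 and 76.5% in P4P6, and 78.8 and 79.3% in TOP1. All 8 guide libraries were below both CasVP libraries. The mean was 80.8% ± 0.709 (SD, n = 2) in CasVP and 78.6% ± 1.21 (SD, n = 8) in guide libraries, a difference of -2.18 percentage points. An exact permutation test, two-sided and enumerating 45 choices of 2 libraries, gave p = 0.0444, and 0.0889 after Benjamini-Hochberg adjustment over the 2 shares tested, so the difference did not pass. On the log2 scale the ratio of LDHB to LDHA differed by -0.19, with the same p of this exact test. A shift that grows with level does not cancel in the share, and LDHB lay above 1000 FPKM. Features of at least 1000 FPKM had median log2 differences from CasVP of -0.20 in P4P6, -0.05 in INT and 0.10 in sgRNA and TOP1. Between 100 and 1000 FPKM, the range of LDHA, they were -0.11 in P4P6, -0.03 in INT, 0.05 in sgRNA and 0.07 in TOP1. The part of such a shift in the share was not tested. With 1 library left out the difference lay between -2.68 and -1.68 percentage points. Without a guide library, 36 splits remain and the smallest possible p is 0.0278. That value was reached without P4P6 replicate 1, and the exact permutation p was 0.0556 or 0.0833 without any of the other guide libraries. Without a CasVP library only 9 splits remain, which allow no p below 0.111, so the test cannot pass there.

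Hexokinase gave no such order, and the phosphofructokinase shares were not compared between groups. HK2 made up 36.6 and 35.0% of the HK1 and HK2 sum in CasVP, 36.2 and 33.4% in sgRNA, 34.2 and 35.7% in INT, 35.5 and 32.4% in P4P6, and 38.0 and 34.8% in TOP1. The guide libraries lay on both sides of the CasVP libraries, from the lowest in P4P6 replicate 1 to the highest in TOP1 replicate 0. The difference was -0.770 percentage points (two-sided exact permutation p = 0.6). The libraries within sgRNA, P4P6 and TOP1 each differed by more than any group mean differed from CasVP.

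**Figure D3:**
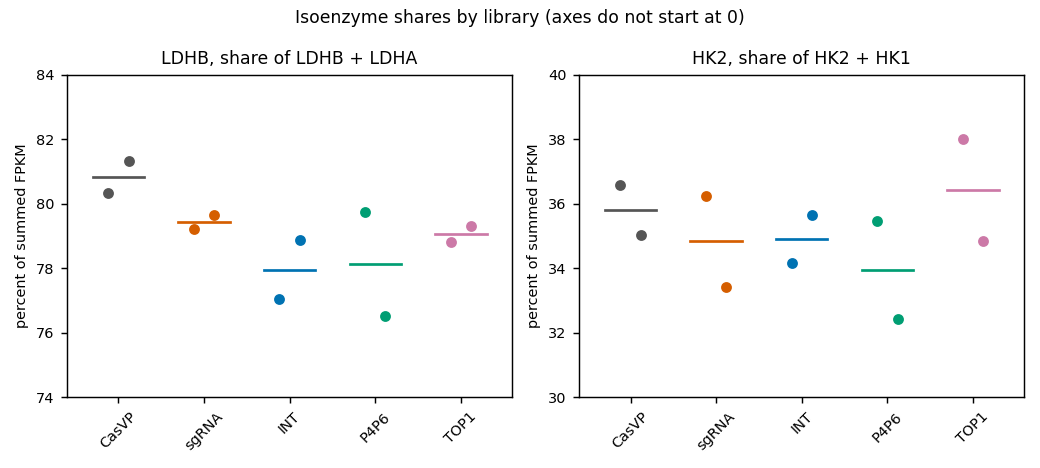
LDHB as a percent of LDHB plus LDHA (left) and HK2 as a percent of HK2 plus HK1 (right) in each library (points) with group means (lines), on axes that do not start at 0. In the left panel both CasVP libraries (80.3 and 81.3%) are above all 8 guide libraries, and in the right panel the groups overlap.

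Among guides, each modified guide was compared with the group labelled sgRNA, and P4P6 was the exception to the flat picture. GAPDH, LDHB and ENO1, the 3 most abundant of these transcripts, were lower in P4P6 and passed, and no gene passed as higher. That is 3 of 10, beside 11.5% of all tested features in this comparison (7.17% lower and 4.33% higher). For INT and for TOP1 against sgRNA the count was 0 of 10 by limma, with 0.00864% of all features passing in each. With an unadjusted limit of 0.05, 5 genes were counted for P4P6 (GAPDH, LDHB, ENO1, TPI1 and HK1), with 30.3% of all features, 1 for INT (GAPDH), with 8.77%, and 0 for TOP1, with 1.68%. Groups did not overlap for 7 of the 10 genes in INT against sgRNA (43% of all features) and for 2 in TOP1 against sgRNA (29.2%). The comparisons with sgRNA share its libraries and are not independent of each other.

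GAPDH was at 2010 and 1897 FPKM in P4P6 and at 2405 and 2352 FPKM in sgRNA. In the remaining groups it was 2270 and 2185 FPKM in CasVP, 2223 and 2106 FPKM in INT, and 2354 and 2385 FPKM in TOP1. Both P4P6 libraries were thus the lowest of the 10. Against sgRNA, GAPDH fell by 0.28 on the log2 scale (SE 0.06), or to 0.821 of its value, with a Benjamini-Hochberg adjusted p of 0.0250 from limma. Against CasVP the log2 difference was -0.19 (SE 0.06; limma, Benjamini-Hochberg adjusted p = 0.105). FPKM rests on a library scale that is not given, so a lower value need not be less RNA per cell. In a bulk sample, less RNA per cell and fewer cells with a given level also cannot be told apart.

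LDHB was 1026 and 1056 FPKM in P4P6 and 1228 and 1237 FPKM in sgRNA, with 1110 and 1183 FPKM in CasVP, 1182 and 1099 FPKM in INT and 1201 and 1271 FPKM in TOP1. Its P4P6 libraries were again the lowest of all. The log2 difference from sgRNA was -0.24 (SE 0.06; limma, Benjamini-Hochberg adjusted p = 0.0307), and from CasVP -0.14 (SE 0.06; limma, Benjamini-Hochberg adjusted p = 0.193).

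ENO1 was 1174 and 1166 FPKM in P4P6 and 1330 and 1359 FPKM in sgRNA, with 1331 and 1280 FPKM in CasVP, 1268 and 1225 FPKM in INT and 1358 and 1419 FPKM in TOP1. It too was lowest in both P4P6 libraries, which here were nearly equal. The log2 difference from sgRNA was -0.20 (SE 0.05; limma, Benjamini-Hochberg adjusted p = 0.0339), and from CasVP -0.16 (SE 0.05; limma, Benjamini-Hochberg adjusted p = 0.119).

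TPI1 and HK1 came nearest among the genes that did not pass. TPI1 was 501 and 555 FPKM in P4P6, below both sgRNA libraries at 582 and 598 FPKM, with a log2 difference of -0.16 (SE 0.06; limma, Benjamini-Hochberg adjusted p = 0.0874). HK1 had the opposite sign, at 26.4 and 28.3 FPKM in P4P6 and 24.1 and 25.5 FPKM in sgRNA, with a log2 difference of 0.14 (SE 0.06; limma, Benjamini-Hochberg adjusted p = 0.134). The P4P6 and sgRNA libraries did not overlap for 6 of the 10 genes, a share close to the 56.5% of all tested features without overlap. Of these genes, 5 were lower in P4P6 (30.6% of all features) and 1 higher (25.9%). The other 4 genes without a call or separation were LDHA (-0.13), PGK1 (-0.13), ALDOA (0.06) and HK2 (0.08 on the log2 scale).

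The calls followed the level of the transcripts. Of the 82 tested features with a mean of at least 1000 FPKM, 69 (84.1%) were lower in P4P6 than in sgRNA by the same test and 0 were higher, and their median log2 difference was -0.28. GAPDH was at that median, and LDHB and ENO1 were nearer to 0 than it. Between 100 and 1000 FPKM the median over 677 features was -0.16 and 37.5% passed as lower. In that class TPI1 was at the median, while LDHA, PGK1, PGAM1 (-0.05) and ALDOA were above it. Between 10 and 100 FPKM the median was -0.03 over 6406 features, and HK1 and HK2 were both above it. Against CasVP the P4P6 median of the highest class was -0.20, with GAPDH again close to it. The part of this shift with level in the 3 calls was not tested.

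**Figure D4:**
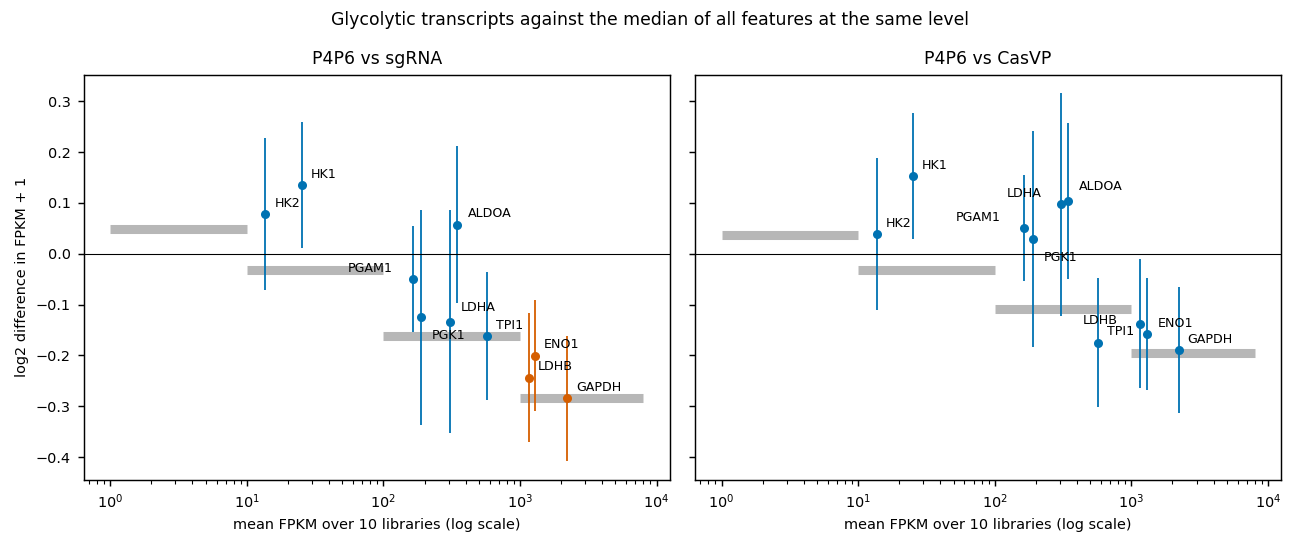
Log2 difference of each gene (points, with 95% intervals) against its mean FPKM on a log axis, for P4P6 against sgRNA (left) and against CasVP (right), with grey bars for the median of all tested features in 4 classes of level. Orange points passed. The bars step down from 0.05 at 1 to 10 FPKM to -0.28 at 1000 FPKM and more in the left panel, and GAPDH lies on the last bar.

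These 3 calls changed with scaling and with libraries left out. With 1 library left out, the log2 differences stayed between -0.33 and -0.24 for GAPDH, -0.26 and -0.22 for LDHB, and -0.22 and -0.19 for ENO1. Leaving out a library also leaves its group with 1 library and fewer residual degrees of freedom. The part of this in the changed calls was not tested. After quantile normalization, which sets values by rank within a library, the log2 differences were 0.00032 for GAPDH, -0.04 for ENO1 and 0 for LDHB, and 0 of the 10 genes passed. Leaving out sgRNA replicate 0, sgRNA replicate 1 or P4P6 replicate 1 also left 0 of 10, and leaving out either CasVP library, which enters only through the shared spread, left GAPDH alone. Without P4P6 replicate 0, GAPDH and ENO1 passed and LDHB did not (limma, Benjamini-Hochberg adjusted p = 0.0512). Features called over the whole table numbered 1, 1 and 2 without sgRNA replicate 0, sgRNA replicate 1 and P4P6 replicate 1 and, without CasVP replicate 0 or 1, 320 and 319, against 1331 in full and 2046 without P4P6 replicate 0.

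Asked as 1 question, whether a gene differed among any of the 5 groups, limma's F test passed 0 of the 10 genes (0.0259% of all tested features). With an unadjusted limit of 0.05 it counted 4, GAPDH, ENO1, LDHB and HK1, with 24% of all features. Their Benjamini-Hochberg adjusted p from limma ran from 0.0665 for GAPDH to 0.178 for HK1.

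The rest of the pathway was read from lists of genes. Of 23 genes for other glycolytic steps and paralogs, 14 reached 1 FPKM and were tested, and 1 passed in any of the 8 comparisons. This was PGAM4, at 0.759 ± 0.182 FPKM in P4P6 and 1.49 ± 0.155 FPKM in sgRNA (SD, n = 2), with a log2 difference of -0.50 (limma, Benjamini-Hochberg adjusted p = 0.0350) at a level near the filter. In P4P6 against sgRNA 11.5% of all tested features passed. Between 1 and 10 FPKM, the class of PGAM4, 4.72% passed, and 0.635% passed as lower. GPI, which converts glucose 6-phosphate to fructose 6-phosphate, averaged 135 FPKM. LDHC was 0.29 lower in P4P6 than in CasVP and ALDOC 0.19 higher in sgRNA than in CasVP on the log2 scale, and ENO2 was 0.16 higher in INT, and none of these passed. The list's median log2 difference for P4P6 against sgRNA was 0.01, and over all tested features -0.01.

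Lactate leaves and enters cells through the monocarboxylate transporters, of which these cells had SLC16A1 (MCT1) at 110 FPKM and SLC16A3 (MCT4), the export form of glycolytic tissues, at 0.220 FPKM. Their chaperone BSG averaged 313 FPKM. SLC16A1 was the transporter that passed, of 4 tested among 9, at 102 ± 4.15 FPKM in P4P6 and 114 ± 0.630 FPKM in sgRNA (SD, n = 2), a log2 difference of -0.15 (limma, Benjamini-Hochberg adjusted p = 0.0499). In this comparison 11.5% of all tested features passed, and in the class from 100 to 1000 FPKM 37.5% passed as lower with a median of -0.16. Glucose transporters were low, with SLC2A1 (GLUT1) at 7.89 FPKM and SLC2A3 (GLUT3) at 1.38 FPKM, and neither passed in any comparison. SLC2A3 had the largest difference of the list from CasVP, 0.34 in P4P6.

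For the entry of pyruvate into mitochondria, 10 of 11 genes were tested and PDHB, a subunit of pyruvate dehydrogenase, passed. It was 104 ± 2.62 FPKM in P4P6 and 117 ± 3.28 FPKM in sgRNA (SD, n = 2), with a log2 difference of -0.16 (limma, Benjamini-Hochberg adjusted p = 0.0443), equal to the median of its class of level, in which 37.5% of features passed as lower (11.5% of all features passed). The pyruvate carrier subunits MPC1 and MPC2 averaged 64.0 and 62.0 FPKM, and PDK1, a kinase that inhibits pyruvate dehydrogenase, 12.8 FPKM. Largest differences from CasVP on the log2 scale were 0.19 for PDK1 in TOP1, -0.18 for MPC1 in INT and -0.18 for PDHB in P4P6. PDK3 was at 0.14 in TOP1. The list's median log2 difference between P4P6 and sgRNA was -0.06.

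Among regulators, 10 of 11 genes were tested and none passed in any of the 8 comparisons by limma. Of all tested features, 11.5% passed in P4P6 against sgRNA and 0.00864 to 0.0173% in each other comparison. HIF1A, the oxygen-labile subunit of hypoxia-inducible factor, averaged 29.5 FPKM, and its relative EPAS1 2.76 FPKM. MYC, a transcription factor that also drives LDHA, averaged 90.8 FPKM, with its largest difference from CasVP in INT (0.13 on the log2 scale). PFKFB3, which makes the phosphofructokinase activator fructose 2,6-bisphosphate, averaged 13.2 FPKM. TIGAR differed by 0.12 in P4P6, EPAS1 by -0.10 in TOP1 and PFKFB4 by -0.10 in sgRNA.

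Likeness of pattern was measured as Pearson's r of log2 values over the 10 libraries, among 9126 features with a mean of at least 5 FPKM, and is a description that shares libraries, depth and scaling between all points. Within the set, GAPDH and ENO1 (r = 0.946), LDHA and PGK1 (0.925) and ENO1 and LDHB (0.890) were closest. LDHA and LDHB therefore each had another enzyme as their nearest partner. Over the whole table, GAPDH was closest to RPL19 (0.993), RPL29 (0.992) and MAD2L1 (0.992), and LDHB to PGM2 (0.973), PPIA (0.969) and RAN (0.967). LDHA was closest to VCL (0.966) and TXNIP (0.949), and PGK1 to PPHLN1 (0.944), PCCA (0.944) and VCL (0.935). Among the neighbours named in this way, PCCA averaged 8.34 FPKM and RPL29 3013 FPKM.

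The closest features were GRPEL1 (0.977) for ENO1, PSME2 (0.980) for TPI1 and ACTN1 (0.974) for HK1. For ALDOA the closest was ACOX3 (0.923), for PGAM1 C9orf40 (0.918) and for HK2 ZC3HAV1L (0.900). HK2 and PGAM1, which varied least, had the lowest such values with ALDOA.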

How the data were processed

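The authors deposited 1 matrix of FPKM values, with a column for each of the 10 libraries. Per the submitters' processing notes, TopHat2 2.0.13, Cuffdiff 2.2.1 and the build hg19 were used. What each tool did, which annotation was used and how libraries were scaled is not given in the sources used here. Per the labels' protocols, libraries were made with a TruSeq kit from total RNA. Of 20246 features, 945 without a gene name (2.31 to 2.47% of summed FPKM) were left out. No read counts were analysed here. Relative depth is the most common ratio of the smallest values between libraries, over features with a mean of at most 0.05 FPKM.

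Groups came from the sample titles. Values were analysed as log2(FPKM + 1), a scale that understates changes of low genes, for 11574 features with a mean of at least 1 FPKM. All 10 libraries entered 1 limma fit of 5 group means (limma 3.58.1, R 4.3.3, variance trend on intensity) with 5 residual degrees of freedom. Tests were two-sided, adjusted by Benjamini-Hochberg within each of 8 comparisons and the F test over 5 groups, at 0.05, and the fit was tested on simulated data. Isoenzyme shares were compared by exact permutation over 45 splits, since 2 libraries against 2 allow no p below 0.3333. Symbols of older date (PKM2, C12orf5, BRP44L, BRP44) were matched through RefSeq synonyms. All 10 genes are named, with the paralogs of a step, list genes that passed and up to 4 per list with the largest difference from CasVP, and the 3 features most like each gene where space allowed. A few paralogs and list genes that entered the sums and counts are not reported here. The genes and lists were chosen with earlier results of these data known. Alternatives were a pseudocount of 0.1, no filter, a filter of 5 FPKM, median-of-ratios and quantile scaling, no trend, a replicate block, only the groups compared, and each library left out. The same alternatives for P4P6 against sgRNA in single genes were chosen after seeing the data.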

Additional observations from a re-analysis of the deposited data

How the results depend on the processing

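Results kept their side of the threshold under a pseudocount of 0.1 and median-of-ratios scaling. The median-of-ratios factors ran only from 0.999 in P4P6 replicate 1 to 1.005 in sgRNA replicate 1. That scaling hardly changed the values, and so could hardly change a call. A filter of 5 FPKM moved 1 count of calls by more than 1.5 times, the F test, from 3 features to 5. Features called for P4P6 against sgRNA, 1331, were 641 with no filter, 388 after quantile normalization, 668 without the trend and 2 with only the groups compared. Of the 10 genes, 0 were called with no filter, after quantile normalization or with only the groups compared, against 3, and 2 without the trend, where ENO1 had an adjusted p of 0.0528 from limma. GAPDH's difference there was 0.00032 after quantile normalization. The rank of GAPDH hardly varied, and that method sets values by rank. Over all these alternatives the limma adjusted p ran from 0.00609 to 0.997 for GAPDH, 0.0139 to 1 for LDHB and 0.0143 to 0.617 for ENO1. Other counts of features called changed as follows. For sgRNA against CasVP, 2 became 1 with no filter or no trend and 4 with only these groups. For all guides, 2 became 1 with no filter or no trend. P4P6 against CasVP went from 1 to 7 after quantile normalization, and TOP1 against CasVP and against sgRNA from 1 to 3 with no filter. The F test gave 5 with no filter, 25 after quantile normalization and 1 without the trend. For all guides against CasVP, quantile normalization turned GAPDH to 0.0020 and ENO1 to 0.0088 on the log2 scale. The cause of these changes was not tested.

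With 1 library left out, features called ranged from 1 to 2046 for P4P6 against sgRNA (0 to 3 of the 10 genes), 1 to 764 for P4P6 against CasVP, 1 to 526 in the F test and 1 to 3 for all guides, and from 1 to 2 in the other comparisons. A group left with 1 library was assumed to vary like the others. P4P6 replicate 0 was the library whose absence gave the highest count in P4P6 against sgRNA, in P4P6 against CasVP and in the F test. The LDHB share difference ranged from -2.68 to -1.68 percentage points. Log2 differences of all guides from CasVP that changed sign ranged from -0.039 to 0.016 for GAPDH, -0.051 to 0.0049 for ENO1, -0.029 to 0.063 for LDHB and -0.028 to 0.033 for HK2. For P4P6 against sgRNA, GAPDH ranged from -0.33 to -0.24, LDHB from -0.26 to -0.22 and ENO1 from -0.22 to -0.19.

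The column index was used as a replicate block, although it was not taken to pair the libraries, which asked for a correlation over 0.1 in every pair of groups. Differences between the indices correlated above 0.1 in 8 of 10 pairs of groups, from -0.04 (INT and TOP1) to 0.42 (sgRNA and P4P6). With the block, 2326 features were called for P4P6 against sgRNA, with 4 of the 10 genes against 3 without it. For P4P6 against CasVP 600 were called in place of 1, with 1 of the 10 genes against 0, and in the F test 1288 in place of 3, with 3 of the 10 against 0. The LDHB share difference of -2.18 percentage points had an exact permutation p of 0.08 within the index. With 2 libraries a group precision was limited, as the 95% interval of GAPDH's log2 difference between P4P6 and sgRNA ran from -0.41 to -0.16.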

Other observations

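Enzymes that branch from glycolysis were expressed with little difference between groups. All 7 genes of the pentose phosphate pathway, which makes NADPH and ribose from glucose 6-phosphate, were tested. TKT (189 FPKM), TALDO1 (110 FPKM) and PGD (109 FPKM) led. PGD passed in 1 comparison, at 101 ± 1.66 FPKM in P4P6 and 112 ± 0.448 FPKM in sgRNA (SD, n = 2), a log2 difference of -0.14 (limma, Benjamini-Hochberg adjusted p = 0.0498). There 11.5% of all tested features passed, and in PGD's class, 100 to 1000 FPKM, 37.5% passed as lower with a median of -0.16. RPIA differed from CasVP by -0.13 in P4P6 and RPE by -0.12, and neither passed. The list's median log2 difference for P4P6 against sgRNA was -0.07, and over all tested features -0.01.

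Gluconeogenesis, which runs the pathway backwards, had 3 of 7 genes at or above 1 FPKM. These were the mitochondrial PCK2 at 68.9 FPKM, G6PC3 at 42.3 FPKM and PC at 6.48 FPKM. The liver and kidney enzymes were low, with PCK1 at 0.297 FPKM, FBP1 at 0.127 FPKM and G6PC at 0.0143 FPKM. No gene of this list passed in any comparison by limma. Of all tested features, 11.5% passed in P4P6 against sgRNA and 0.00864 to 0.0173% in each other comparison. PC had the largest difference from CasVP, -0.30 in TOP1, followed by PCK2 at -0.19 in P4P6 and G6PC3 at 0.12 in sgRNA.

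Hypoxia-induced genes outside glycolysis gave 8 tested of 10, and none passed in any comparison by limma. The share of all tested features that passed was 11.5% in P4P6 against sgRNA and 0.00864 to 0.0173% in each other comparison. DDIT4 (256 FPKM) and VEGFA (49.5 FPKM) led, and CA9, a gene of strong hypoxia, was at 0.0123 FPKM. Largest log2 differences from CasVP were 0.25 for EGLN3 in P4P6, 0.20 for BNIP3 and for NDRG1 in INT, and -0.12 for P4HA1 in P4P6. The list's median for all guides against CasVP was 0.05, and over all tested features -0.0031. Of the glycolytic hypoxia targets named above, LDHA was at 0.21, PGK1 at 0.12, ALDOA at 0.08, HK2 at 0.0026 and ENO1 at -0.02.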
